A study of Homo sapiens with 18 samples.

Results

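The genes described here encode the polymerases, the clamp, the clamp loaders and the checkpoint and firing factors of the DNA replication fork, 35 of the 20045 genes that have an annotated probe on the array. They were chosen by name and role, with earlier results of these data known. Each was read from its annotated probe with the highest mean over all 18 arrays. A gene was tested where the mean of its probe exceeded a log2 value of 6.31, the 40th percentile over the array. This held for 34 of the 35, while PRIM2, the large subunit of primase, lay under the filter with a mean of 6.24. RNA came from LNCaP, an androgen-sensitive line grown from a lymph node metastasis of prostate cancer. All cells were held in RPMI with charcoal-stripped serum, which is depleted of steroids, and then treated for 24 h. The 6 groups of 3 Illumina arrays were DMSO, the vehicle; DHT, the androgen dihydrotestosterone; flutamide at 1 µM, a classic antiandrogen; flutamide with DHT; MJC13 at 30 µM, a surface-directed antiandrogen; and MJC13 with DHT. The labels give DHT at 10 nM and the study's text gives a lower dose. Nothing says whether the 3 arrays of a group came from separate cultures, so p-values measure only the spread between these samples, which may be technical. The comparisons ask how far DHT moved the replication genes and what was left of that response beside each antagonist.

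Duplication of the genome starts when the CDC7 kinase with its partner DBF4 fires licensed origins, and CDC45 and the GINS complex then join the MCM ring to form the CMG helicase. Primase with polymerase alpha lays down short primers, the RFC complex loads the PCNA clamp on them, and polymerases epsilon and delta extend the leading and the lagging strand. Many of these genes are transcribed at the passage from G1 to S phase, when E2F factors are released from the retinoblastoma protein, and in prostate cancer cells androgen is a known signal for that passage.

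By their means over the 18 arrays, the luminal prostate markers KLK3, KLK2, TMPRSS2, FOLH1, HOXB13, KRT8 and KRT18 lay above the filter, whereas KRT5 and KRT14 of basal cells and PTPRC, CD3E and LYZ of leukocytes lay under it. Of the fibroblast markers COL1A2 lay under it, and COL1A1, DCN and VIM lay above it at means of 7.72, 6.87 and 10.58. Values are log2 signals after quantile normalization. Arrays carry a number from 1 to 3 in their titles, and the fit is given without this number and with it as a block. The numbers were not shown to pair the samples, as deviations of same-numbered arrays correlated at over 0.1 for every number in 5 of the 15 pairs of groups, DMSO with DHT not among them, and the number in the sample description differed from that in the title for 11 of 18 arrays.

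Promoter windows of 6 genes with a higher DHT level are shown, picked because they hold letters of the kind E2F proteins bind. PRIM1, FEN1 and CDC45, among the genes with the largest DHT differences, hold none of these letters in their matched promoters and are not shown. RefSeq promoters (GRCh38.p14, 250 bases before to 50 after a start) were matched for 29 of the 35 genes. Each line runs from 100 bases before to 20 bases after the annotated start, 5′ to 3′ on the gene's strand. Capitals mark the E2F-type letters (TTTCCCGC, TTTGGCGC, TTTCGCGC or TTTGCCGC, on either strand) and CCAAT on either strand.
RFC3, chr13:33818049-33818168, + strand: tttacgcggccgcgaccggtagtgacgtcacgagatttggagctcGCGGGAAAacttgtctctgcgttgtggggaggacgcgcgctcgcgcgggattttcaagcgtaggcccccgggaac
GINS3, chr16:58392371-58392490, + strand: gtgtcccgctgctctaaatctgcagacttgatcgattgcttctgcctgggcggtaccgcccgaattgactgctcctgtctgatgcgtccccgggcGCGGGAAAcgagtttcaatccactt
POLE2, chr14:49688195-49688314, - strand: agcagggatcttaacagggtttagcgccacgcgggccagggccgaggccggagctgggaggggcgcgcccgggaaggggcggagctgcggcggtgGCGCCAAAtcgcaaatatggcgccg
GINS2, chr16:85688935-85689054, - strand: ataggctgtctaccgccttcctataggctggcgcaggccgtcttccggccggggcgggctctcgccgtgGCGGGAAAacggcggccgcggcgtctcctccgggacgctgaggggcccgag
CLSPN, chr1:35769959-35770078, - strand: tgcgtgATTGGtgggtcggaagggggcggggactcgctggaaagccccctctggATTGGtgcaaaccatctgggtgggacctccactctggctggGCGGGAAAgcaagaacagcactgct
POLA2, chr11:65261862-65261981, + strand: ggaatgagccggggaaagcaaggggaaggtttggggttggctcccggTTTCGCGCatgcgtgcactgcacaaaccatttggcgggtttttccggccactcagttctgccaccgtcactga
In GINS3, POLE2 and CLSPN the first of the E2F-type letters lay at -5 from the start, in GINS2 at -31, in POLA2 at -53 and in RFC3 at -55. Over the whole 300 bases, 13 of the 29 genes (44.8%) held such letters, compared with 4.0% of the 27305 genes in the table and 5.4% of its 15843 protein-coding genes. CCAAT was found in 16 of 29 (55.2%), compared with 42.1% of protein-coding genes. The letters TTTGAA or TTCGAA, which mark many mitotic promoters, were found in 2 of 29 (6.9%), compared with 17.5% of protein-coding genes. A match describes these letters and is not a measured binding site. GINS4, DNA2, RPA2, POLD3, DSCC1 and RPA3 were not matched.

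Most of the replication genes measured higher with DHT than with DMSO. Of the 34 tested, 32 had a higher mean with DHT than with DMSO, with a median difference of 0.74 on the log2 scale (1.67-fold) and a range from -0.19 to 1.32, while the median over all probes tested was -0.01. In 23 of the 34 all 3 DHT arrays lay above all 3 DMSO arrays, compared with 7.94% of all probes tested, and 23 had an unadjusted p under 0.05 from limma in the direction of an increase, compared with 4.86% of all probes. After adjustment over 28334 probes, 0 of 34 passed limma's test at 0.05 without the block (0.176% of all probes did, upward), and 15 of 34 passed with it (1.28% of all probes). Those 15 were CDC45, GINS2, GINS3, GINS4, RFC3, RFC4, RFC5, POLA1, POLA2, PRIM1, POLE2, FEN1, LIG1, CLSPN and CDC7. With the number of the sample description as the block in place of that of the title, 0 of 34 passed. Leaving out any 1 of the DMSO or DHT arrays left 4 to 9 genes passing with the title block (4 without DHT array 2, 5 without DMSO array 1 or 3, 7 without DHT array 3, 8 without DHT array 1 and 9 without DMSO array 2), and PRIM1 and POLE2 passed in all 12 alternatives run with it. The share of all probes passing in these alternatives was not counted. In bulk RNA, more cells in S phase and more of these transcripts per cell cannot be told apart.

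**Figure D1:**
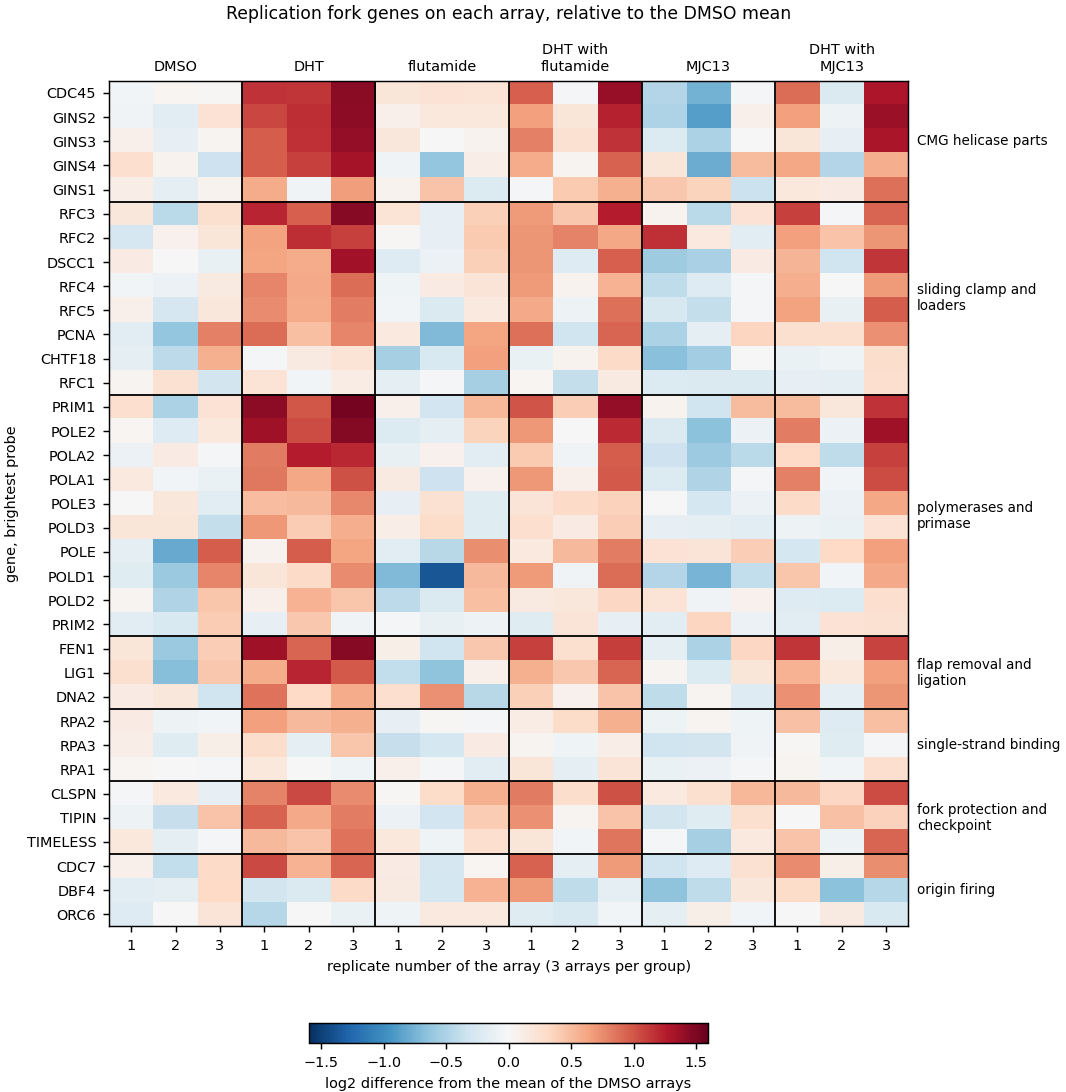
Log2 difference from the mean of the 3 DMSO arrays for each of the 35 genes (rows, in blocks of role and ordered by the DHT difference) on each of the 18 arrays (columns, by group and replicate number). Red is higher and blue lower; the DHT columns are red for most rows, ORC6, DBF4, RPA1, RFC1 and CHTF18 stay pale, and the arrays numbered 2 are paler than the others in both groups that combine DHT with an antagonist.

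Of the 5 helicase parts, 4 passed the test with the block and 0 without it, and the median difference was 1.18. CDC45, the helicase subunit whose loading marks a fired origin, measured 10.77, 10.86 and 10.84 on DMSO arrays 1, 2 and 3, and 11.98, 11.96 and 12.27 on the DHT arrays. The 6 values did not overlap, and the DMSO arrays lay closer together than the DHT arrays. The difference was 1.25 ± 0.337 (SE; 2.38-fold), with a limma adjusted p of 0.188 without the block and 0.0226 with it. GINS2 rose from 11.23, 11.11 and 11.52 to 12.35, 12.47 and 12.72, a difference of 1.23 (limma adjusted p = 0.00877 with the block, 0.166 without). GINS3 rose from 9.58, 9.37 and 9.55 to 10.47, 10.66 and 10.90, by 1.18 (0.0129 with the block, 0.140 without, both from limma). For both subunits of the ring that ties CDC45 to the MCM proteins, the lowest DHT array exceeded the highest DMSO array. GINS4, another subunit of that ring, rose by 1.13, from 7.55, 7.33 and 6.94 to 8.24, 8.36 and 8.61, again without overlap. GINS1, the remaining subunit, lay near the filter at 6.85, 6.59 and 6.80 with DMSO and 7.35, 6.69 and 7.42 with DHT. Its DHT array 2 fell within the DMSO arrays, and the difference was 0.41 ± 0.269.

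Among the clamp and its loaders, 8 of 8 had a positive difference, with a median of 0.74, and 3 passed with the block. RFC3, a small subunit of the loader ring, measured 9.90, 9.29 and 9.98 with DMSO and 10.94, 10.68 and 11.18 with DHT. The groups were separate, and number 2 gave the lowest value in each. Its difference was 1.21 ± 0.291, with a limma adjusted p of 0.128, or 0.00178 with the block. RFC4, another small subunit, rose by 0.76, from 11.71, 11.67 and 11.90 to 12.54, 12.36 and 12.65, without overlap. RFC5 rose by 0.73, and RFC2, whose groups did not overlap either, had a difference of 0.97 with a limma adjusted p of 0.0985 with the block. PCNA, the clamp itself, gave 12.36, 11.92 and 13.34 with DMSO and 13.44, 13.03 and 13.32 with DHT. DMSO array 3 lay among the DHT arrays, so the groups overlapped, and the difference of 0.72 ± 0.383 did not pass (limma adjusted p = 0.236 with the block, 0.673 without). RFC1, the large subunit of the loader, measured 11.42, 11.62 and 11.08 with DMSO and 11.59, 11.33 and 11.48 with DHT. The DHT values all fell within the range of the DMSO values, and the difference was 0.10, beside which CHTF18, the large subunit of the alternative loader used in cohesion, had one of 0.11. DSCC1, another subunit of that alternative loader, had a difference of 0.86 with groups that did not overlap, and did not pass.

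The polymerase and primase genes spanned differences from 0.36 to 1.32, and 4 of the 9 tested passed with the block. PRIM1, the catalytic subunit of primase, measured 10.85, 10.08 and 10.81 with DMSO and 12.01, 11.57 and 12.11 with DHT. All DHT values were above all DMSO values, with number 2 lowest in both. The difference was 1.32 ± 0.314 (2.49-fold), the largest of the 34 in this comparison, with a limma adjusted p of 0.123 without the block and 0.000502 with it. POLE2, the second subunit of polymerase epsilon, went from 9.58, 9.33 and 9.72 to 10.90, 10.59 and 11.02, a difference of 1.29 ± 0.319 (limma adjusted p = 0.00329 with the block, 0.144 without). Between same-numbered arrays the POLE2 difference was 1.32, 1.26 and 1.30. POLA2 gave 10.56, 10.78 and 10.62 with DMSO and 11.49, 11.91 and 11.85 with DHT, with no overlap. POLA2 and POLA1, the accessory and the catalytic subunit of polymerase alpha, rose by 1.10 and 0.83, POLA2 with a limma adjusted p of 0.0499 with the block, just under the threshold. The other catalytic subunits varied more between DMSO arrays. POLE, that of epsilon, measured 7.60, 6.95 and 8.74 with DMSO and 7.82, 8.73 and 8.39 with DHT, and POLD1, that of delta, 7.51, 7.10 and 8.48 against 7.89, 8.004 and 8.45. In both genes DMSO array 3 was brighter than every DHT array, and the differences of 0.55 and 0.42 did not pass. POLD2, an accessory subunit of delta, measured 11.78, 11.26 and 12.18 with DMSO and 11.82, 12.30 and 12.18 with DHT. The POLD2 groups overlapped, with a difference of 0.36, and POLD3 and POLE3, further accessory subunits whose groups did not overlap, had differences of 0.56 and 0.59 without passing.

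**Figure D2:**
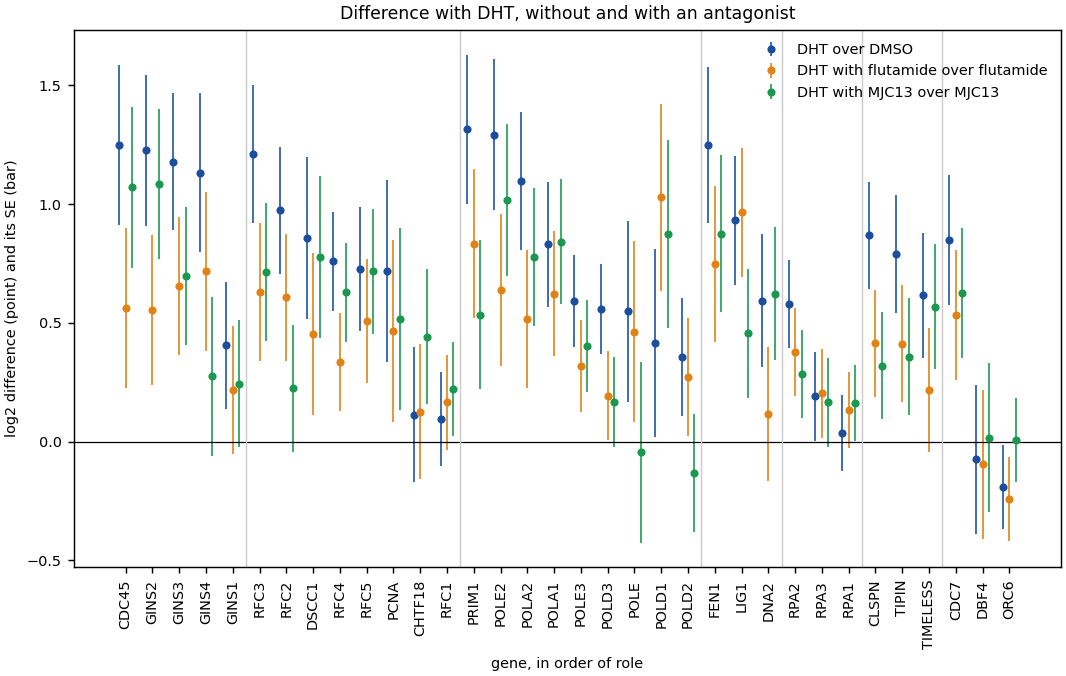
Log2 difference with DHT (points) and its SE from limma without the block (bars) for the 34 tested genes, in order of role with vertical lines between roles, over DMSO (blue), beside flutamide (orange) and beside MJC13 (green). Blue points reach 1.32 (PRIM1) and most lie above the orange and green points of the same gene; ORC6 and DBF4 lie at or under 0 in blue and orange.

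FEN1, the nuclease that trims the flap of Okazaki fragments, measured 12.14, 11.36 and 12.34 with DMSO and 13.30, 12.88 and 13.40 with DHT. The groups were separate, again with number 2 lowest in each. The difference was 1.25 ± 0.328, with a limma adjusted p of 0.176, or 0.000995 with the block. LIG1, the ligase that joins the fragments, rose by 0.93 with the block, with differences of 0.34, 1.91 and 0.56 between arrays numbered 1, 2 and 3. It measured 8.001, 7.06 and 8.18 with DMSO and 8.34, 8.97 and 8.74 with DHT. Number 2 was the lowest of the DMSO arrays and the highest of the DHT arrays, and the groups did not overlap. DNA2, a nuclease for longer flaps, measured 8.42, 8.47 and 7.98 with DMSO and 9.16, 8.61 and 8.88 with DHT. These groups were separate by a narrow margin at number 2, and the difference of 0.59 did not pass.

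The 3 genes of the single-strand binding trimer had a median difference of 0.19, and none passed. RPA2, the middle subunit, measured 12.67, 12.46 and 12.49 with DMSO and 13.20, 13.06 and 13.10 with DHT, a difference of 0.58 ± 0.186 without overlap (limma adjusted p = 0.144 with the block). RPA1, the large subunit, measured 12.84, 12.80 and 12.78 with DMSO and 12.98, 12.81 and 12.74 with DHT. The RPA1 arrays were interleaved, with a difference of 0.03, and RPA3, the small subunit, had one of 0.19. Among the fork protection and checkpoint genes, CLSPN, the adaptor through which ATR activates CHEK1, measured 6.22, 6.39 and 6.10 with DMSO and 7.02, 7.29 and 6.99 with DHT. Its DMSO values straddle the filter. The increase of 0.87 passed with the block (limma adjusted p = 0.0439), and in 3 of the 12 alternatives run with it. TIMELESS measured 11.71, 11.40 and 11.50 with DMSO and 12.05, 11.998 and 12.40 with DHT. TIPIN and TIMELESS, which form the complex that steadies the fork, had differences of 0.79 and 0.62 and no overlap, and neither passed (limma adjusted p = 0.0694 and 0.121 with the block).

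Of the 3 origin genes, CDC7 rose by 0.85 (limma adjusted p = 0.0303 with the block), from 10.86, 10.38 and 11.08 to 11.82, 11.33 and 11.70. Its regulatory partner DBF4 measured 7.11, 7.14 and 7.61 with DMSO and 7.002, 7.05 and 7.59 with DHT. The DBF4 values were interleaved, and the difference was -0.08 ± 0.313. ORC6, the smallest subunit of the origin recognition complex, had a difference of -0.19 by its brightest probe, which measured 14.10, 14.30 and 14.51 with DMSO and 13.85, 14.30 and 14.20 with DHT, near the brightest values of the array. PRIM2, under the filter, measured 6.06, 5.98 and 6.63 with DMSO and 6.10, 6.66 and 6.17 with DHT and was not tested.

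Of the 35 genes, 14 have more than 1 probe. The other ORC6 probe measured 9.34, 8.59 and 9.83 with DMSO and 10.12, 10.51 and 10.37 with DHT, a difference of 1.08 (limma adjusted p = 0.0297 with the block). The difference of the brightest ORC6 probe, -0.19 ± 0.177, did not pass and its groups overlapped, whereas the other probe was higher with DHT. For PCNA, another probe gave a difference of 1.01 that passed with the block (limma adjusted p = 0.0325). For RPA1 the remaining probes gave 0.43 and 0.51. Neither passed, but on each of them the DHT arrays all lay above the DMSO arrays, unlike on the brightest probe. The second FEN1 probe, with a difference of 1.53, was the only one of the 52 probes for these genes that passed without the block (limma adjusted p = 0.0172). RFC3, RFC4 and PRIM1 gave positive differences that passed with the block on every probe. Other probes gave less: the second POLA1 probe a difference of 0.19 (limma adjusted p = 0.886 with the block), against 0.83 for the probe that passed, the third PCNA probe one of 0.47 (limma adjusted p = 0.537 with the block), and the second RFC2 probe one of 0.41, all with overlapping groups. The other probe of RFC5 lay under the filter and was not tested. Which of a gene's transcripts each probe reads was not tested.

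**Figure D3:**
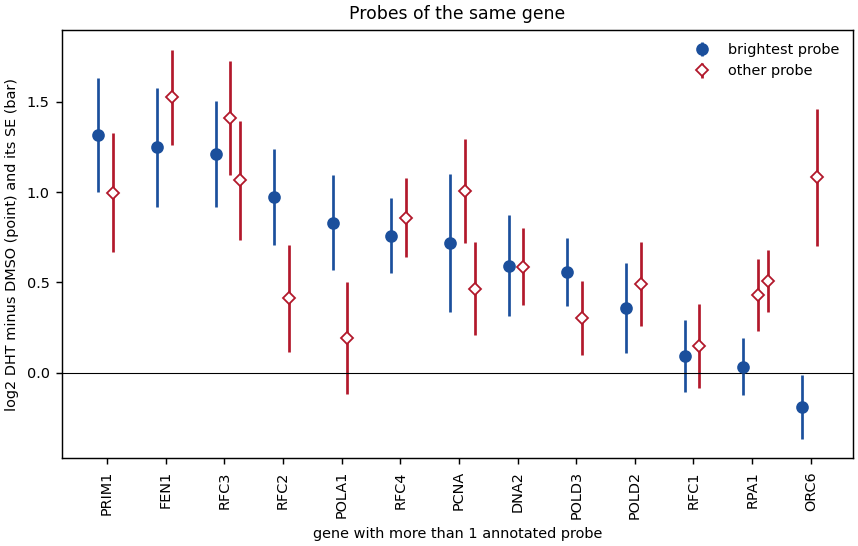
Log2 difference of DHT minus DMSO (points) and SE from limma without the block (bars) for the genes with more than 1 tested probe; filled circles are the brightest probe of each gene and open diamonds the others. ORC6 has one probe at -0.19 and one at 1.08, and the FEN1 diamond at 1.53 is the highest point.

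With flutamide present, DHT still gave a positive difference in 32 of 34 genes, with a median of 0.46 (1.37-fold). The groups were separate upward in 6 genes, GINS2, GINS3, RFC2, RFC3, LIG1 and RPA2, compared with 3.72% of all probes, and 9 had an unadjusted p under 0.05 from limma without the block, compared with 2.47% of all probes, and 14 with it (4.46%). None passed after adjustment, without the block, when no probe of the array did, or with it, when 0.0141% of all probes did. With MJC13 present, the difference was again positive in 32 of 34, with a median of 0.49 (1.40-fold). The groups were separate upward in 4 genes, RFC1, RFC4, POLD1 and POLD3 (5.54% of all probes), 15 had an unadjusted p under 0.05 from limma without the block (2.83% of all probes) and 17 with it (4.49%), and none passed after adjustment without the block, as for every probe, or with it (0.0141% of all probes).

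PRIM1 beside flutamide measured 10.66, 10.28 and 11.12 without DHT and 11.59, 10.98 and 11.99 with it, and beside MJC13 10.64, 10.27 and 11.09 without and 11.09, 10.77 and 11.74 with it. Number 2 was lowest and number 3 highest in all 4 of these groups, so each pair of groups overlapped although every same-numbered difference was positive. The PRIM1 response was 0.83 beside flutamide and 0.53 beside MJC13, compared with 1.32 beside DMSO. GINS2 gave 11.36, 11.46 and 11.45 with flutamide, 11.94, 11.47 and 12.52 with flutamide and DHT, 10.79, 10.40 and 11.37 with MJC13, and 11.94, 11.20 and 12.67 with MJC13 and DHT. Its response was 0.55 beside flutamide and 1.08 beside MJC13. At number 2, GINS2 was nearly level with and without DHT beside flutamide. GINS4 gave 7.46, 6.48 and 7.78 with MJC13 and 7.89, 6.80 and 7.85 with MJC13 and DHT, a response of 0.27, while DHT alone had given 8.24, 8.36 and 8.61. All DHT arrays of GINS4 lay above all arrays of DHT with MJC13.

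POLE2 gave 9.33, 9.39 and 9.90 with flutamide and 10.24, 9.55 and 10.74 with flutamide and DHT, and 9.31, 8.89 and 9.45 with MJC13 and 10.36, 9.45 and 10.90 with MJC13 and DHT. Each POLE2 pair of groups overlapped only through number 2, and its responses were 0.64 and 1.02. RFC3 gave 9.94, 9.60 and 10.11 with flutamide and 10.40, 10.15 and 10.98 with flutamide and DHT, which did not overlap, a response of 0.63 beside the 0.72 it had beside MJC13. FEN1 had responses of 0.75 and 0.88 beside flutamide and MJC13 on its brightest probe, and of 0.92 and 0.65 on its second. CDC45 had responses of 0.56 and 1.07.

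Unlike these genes, POLD1 had its smallest response beside DMSO, where DMSO array 3 was brighter than every DHT array. It measured 6.99, 6.32 and 8.22 with flutamide and 8.38, 7.64 and 8.59 with flutamide and DHT, a response of 1.03, and the response beside MJC13 was 0.87, compared with 0.42 beside DMSO. LIG1 had a response of 0.97 beside flutamide and 0.93 beside DMSO, with 0.46 beside MJC13. The differences between these POLD1 and LIG1 responses did not pass the test of the difference. Other genes had their smallest response beside DMSO as well. RFC1 was among them, at 0.10 beside DMSO, 0.17 beside flutamide and 0.22 beside MJC13.

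Set directly against DHT alone, DHT with flutamide was lower in 30 of 34 genes, with a median of -0.28, and DHT with MJC13 in 32 of 34, with a median of -0.33. These comparisons share the DHT arrays with the comparison of DHT and DMSO and so are not independent of it. The groups were separate downward in 3 genes for flutamide, GINS4, POLD3 and POLE3 (4.01% of all probes), and in 4 for MJC13, GINS4, POLD3, RPA2 and TIPIN (4.63% of all probes). Without the block, an unadjusted p under 0.05 from limma was reached downward by 1 gene for flutamide, POLA2 (0.918% of all probes), and by 5 for MJC13, GINS3, GINS4, POLA2, POLD3 and PRIM1 (1.78% of all probes). With the block it was reached by 7 genes for flutamide (1.50% of all probes) and by 12 for MJC13 (3.01% of all probes), with GINS2, GINS4, RFC3, POLA2, POLE2, PRIM1 and FEN1 in both. None of the 34 passed after adjustment by limma, with or without the block.

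The change of the DHT response was tested as an interaction. With flutamide the response was smaller in 28 of 34 genes, with a median change of -0.34, and with MJC13 in 26 of 34, with a median of -0.20. By limma without the block 0 of 34 reached an unadjusted p under 0.05 for either, where 1.33% and 2.15% of all probes did downward. With the block 5 did for flutamide, GINS2, RFC3, POLE2, PRIM1 and FEN1 (1.91% of all probes), and 2 for MJC13, GINS4 and PRIM1 (3.18% of all probes). None passed adjustment with or without the block. The median 95% half-width of a gene's change was 0.810, so without the block a change of the size of these medians was not detectable in a typical gene. With the block, the smallest p among the brightest probes was that of PRIM1 for MJC13, a change of -0.78 ± 0.225. Its unadjusted p was 0.00301 and its adjusted p 0.813 from limma. Between same-numbered arrays the PRIM1 change on this probe was -0.71, -0.99 and -0.64. The second PRIM1 probe gave a change of -0.38 for MJC13, with an unadjusted p of 0.196 from limma with the block. By number its changes were 0.0087, -0.98 and -0.17. Another RFC3 probe gave a change of -0.92 for MJC13, with an unadjusted p of 0.00284 and an adjusted p of 0.813 from limma with the block. The remaining RFC3 probes gave -0.49 and -0.37, with unadjusted p of 0.0593 and 0.211 from the same fit.

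The antagonists were given at different doses, 1 µM flutamide and 30 µM MJC13, so their values stand side by side. The response beside MJC13 exceeded that beside flutamide in 22 of 34 genes, by a median of 0.07, and 0 genes reached an unadjusted p under 0.05 from limma in either direction (2.22% of all probes did upward and 2.24% downward). The widest differences were GINS2 at 0.53 ± 0.447 and LIG1 at -0.51 ± 0.384. Without DHT, flutamide against DMSO gave 19 genes above and 15 under 0, with a median of 0.03 and 0 genes at an unadjusted p under 0.05 (1.45% of all probes upward and 1.12% downward). MJC13 against DMSO gave 27 of 34 genes under 0, with a median of -0.13 and again 0 genes at an unadjusted p under 0.05 from limma without the block (1.19% of all probes downward). With the block 2 genes did downward, POLD1 and CHTF18 (1.80% of all probes). The median 95% half-width in these comparisons was 0.573.

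For these genes the arrays numbered 2 stand apart most in the groups that combine DHT with an antagonist. Expressed relative to DMSO and averaged over the 35 genes, the log2 value was 0.02, -0.19 and 0.16 on the DMSO arrays numbered 1, 2 and 3, and 0.63, 0.61 and 0.83 on the DHT arrays. It was 0.48, 0.09 and 0.70 with DHT and flutamide, and 0.39, -0.03 and 0.69 with DHT and MJC13. With flutamide alone it was -0.05, -0.13 and 0.19, and with MJC13 alone -0.15, -0.27 and 0.05. In all 6 groups number 2 was lowest and number 3 highest. With DHT, flutamide or MJC13 alone, number 1 lay nearer to number 2 than to number 3. Between same-numbered arrays, DHT with flutamide minus DHT was -0.15, -0.52 and -0.13, and DHT with MJC13 minus DHT was -0.25, -0.64 and -0.14. Number 2 thus gave the widest gap for both antagonists, while DHT minus DMSO was 0.61, 0.80 and 0.66.

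**Figure D4:**
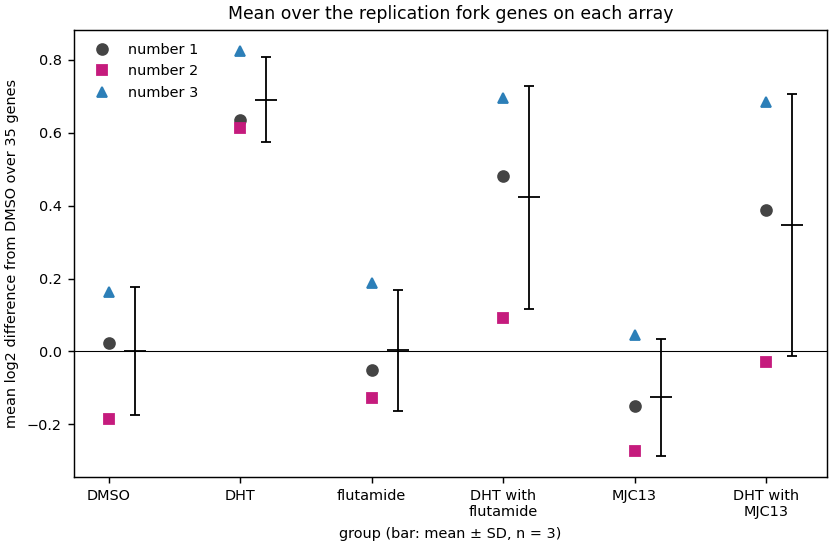
Log2 value relative to DMSO on each array, averaged over the 35 genes, by group, with the replicate number as the symbol (circle 1, square 2, triangle 3) and the group mean ± SD (n = 3) beside it. The DHT arrays lie between 0.61 and 0.83, and in the groups that combine DHT with flutamide or MJC13 number 2 lies at 0.09 and -0.03 while number 3 lies at 0.70 and 0.69.

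Of the 35 genes, 27 were lowest on number 2 in DHT with flutamide and 29 in DHT with MJC13, whereas 32.6% and 33.2% of all probes were. The SD within those groups had a median of 0.386 and 0.387 over the genes, compared with 0.220 in the DHT group. Left out, the arrays numbered 2 changed little in the response over DMSO (median 0.73) and those beside flutamide (0.53) and MJC13 (0.55). The gap to DHT narrowed from -0.28 to -0.19 for flutamide and from -0.33 to -0.19 for MJC13, and the median change of the DHT response from -0.34 to -0.23 and from -0.20 to -0.0043. The median gap to DHT for MJC13 and its median change thus moved by over 1.5 times. Without these arrays the genes passing with the block for DHT against DMSO were 3 of 34, CDC45, PRIM1 and POLE2. The share of all probes passing there was not counted. A list of 16 mitosis genes had the same order, with means of 0.72, -0.21 and 1.29 with DHT and flutamide. The 7 luminal markers had that order there too, over a narrower range, at 0.333, 0.327 and 0.444. With DHT alone they did not, at 0.690, 0.781 and 0.758. The part of cycling cells in the order of the numbers was not tested.

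Genes of neighbouring steps, from lists of each pathway, gave positive differences as well. For the counts that follow, 0.176% of all probes passed upward without the block and 1.28% with it. Of 14 licensing and helicase genes, 14 had a positive DHT difference, with a median of 0.78, 1 passed limma's test without the block and 8 with it. The one was CDC6, which loads the MCM ring, at 1.38 (limma adjusted p = 0.0172), and MCM5 and MCM6 of the ring itself rose by 1.20 and 0.83 with the block. Of 16 tested mitosis genes, 16 were positive, with a median of 0.92 and 9 passing with the block, among them CDK1 at 1.02 and NUSAP1 at 0.98, while MKI67 at 0.79 did not pass. Of 16 tested E2F and S-phase control genes, 12 were positive, with a median of 0.46 and 5 passing with the block, among them CDK2 at 1.11, which also passed without it (limma adjusted p = 0.0326), E2F2 at 1.48 and CDC25A at 1.32. Of 25 other tested fork genes, 21 were positive, with a median of 0.46 and 5 passing with the block, including the checkpoint kinase CHEK1 at 1.10, the fork anchor WDHD1 at 1.02 and MCM10 at 1.32.

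Across the 18 arrays, which share the treatment and the replicate number, the genes followed one another to unequal degrees. Against the mean of the other members, POLE2 had a Pearson r of 0.983, RFC5 of 0.976 and GINS2 of 0.959. PRIM2 at 0.016, DBF4 at 0.249, GINS1 at 0.386 and ORC6 at -0.425 followed it least. The ORC6 value is that of its brightest probe, near the brightest values of the array, whereas its other probe was higher with DHT. Of 14399 other genes, those most like the mean of the members were TRIP13 (r = 0.977), SPC25 (0.973), E2F2 (0.972), CDCA7 (0.966) and PLK4 (0.962). E2F-type letters were found in 9 of the 14 matched genes that passed with the block (64.3%) and in 4 of the 15 that did not (26.7%). The other letters ran the other way, with CCAAT in 42.9% and 66.7%, and TTTGAA or TTCGAA in 0.0% and 13.3%. The list of genes that passed came from these same data, and without the arrays numbered 2 only 3 of its 15 genes still passed. PCNA and ORC6, counted among those that did not pass, passed with the block on another probe. The split is thus a description over promoters of the same 300 bases, and was not tested.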

How the data were processed

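RNA of 18 LNCaP samples in 6 labelled groups was measured on Illumina arrays. Per the labels and methods, the authors exported signals with GenomeStudio and subtracted background and quantile-normalized with lumi (versions not given in the sources used here), and deposited log2 values. Whether a plain log2 or a variance-stabilizing transform was used is not stated. Array number limits the precision. A table before normalization, with 36 columns that no label ties to samples, was not used. The members, lists and tests were chosen with earlier results of these data known. Probes brighter on average than the 40th percentile (28334 of 47223) were fitted with limma 3.58.1 in R 4.3.3 as 6 group means (12 residual degrees of freedom), or with the title number as a block (10), with Benjamini-Hochberg adjustment over all of them and a threshold of 0.05. Symbols came from the platform annotation. Named genes were all 35 members (values per array for those passing with the block, at most the 12 with the smallest p, and for the extremes of each role) and, in each pathway list, the 3 tested genes with the smallest p for DHT. The steps were tested on simulated data. Alternatives covered the filter, scaling, array weights, moderation, probe choice and leaving out arrays.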

Additional observations from a re-analysis of the deposited data

How the results depend on the processing

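For DHT against DMSO, 0 of the 34 genes passed limma's test as reported, 15 with the replicate block of title numbers, 15 with array weights and 5 with the compared groups alone, while a replicate block of description numbers gave 0. The title block changed no other count of genes passing. The pairing check held for 5 of 15 pairs of groups. With the title block, leaving out 1 array gave 4, 5, 5, 7, 8 and 9 genes in place of 15, and leaving out the arrays numbered 2, chosen after seeing the data, gave 3. Counts with the other filters, moderation, scaling, probe choice or the DMSO and DHT arrays alone ran from 10 to 17. The share of all probes passing upward was counted without the block (0.176%) and with the title block (1.28%). It was not counted for the other alternatives, so their counts cannot be set against the whole array. Medians for DHT against DMSO and beside either antagonist kept their direction under all alternatives run. The median for flutamide against DMSO, 0.03, ran from -0.071 to 0.11 when 1 array was left out, turning negative without flutamide array 3 (-0.071) or DMSO array 2 (-0.061), and that for MJC13 against DMSO, -0.13, from -0.27 to -0.089. The median difference between the responses beside MJC13 and flutamide, 0.07, was 0.035 with the mean over all probes of a gene and 0.10 without the arrays numbered 2, and ran from -0.094 to 0.21 when 1 array was left out, turning negative without array 2 of DHT with flutamide (-0.094) or array 3 of DHT with MJC13 (-0.070). The causes were not tested. Signal near the floor limits CLSPN, GINS1 and PRIM2. Of the values for single genes and for group means over the genes, 246 were unchanged. Unchanged meant the same side of the threshold for a gene, and within the SD of the group for a group mean. Another 30, all of single genes, passed the threshold where they had not before, in the same direction. A turn of direction was not counted where neither value passed.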
